A study of Saccharomyces cerevisiae with 78 samples.

Results

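M490-A12 is 1 of 25 fusion-gene clones of budding yeast (Saccharomyces cerevisiae) whose transcriptomes were set against that of cells with an empty plasmid. Its 3 libraries and the 3 libraries of the control plasmid were taken by their titles, 6 of the 78 libraries of the series. The 78 libraries form 26 groups of 3. Of 5229 gene rows in each library, 5212 passed the filter on low counts and were tested. All groups are transformants of BY4742, a haploid laboratory strain of mating type alpha that cannot make histidine, leucine, lysine or uracil. M490-A12 cells carried a plasmid with the fusion gene, and the control cells carried the plasmid alone, named p416-GAL1 in the library names of replicates 1 and 2 and PP2061 in that of replicate 3. Such a plasmid restores growth without uracil and drives its insert from the galactose-inducible GAL1 promoter. Both groups grew to the middle of logarithmic growth in galactose medium without uracil (SDCGal-Ura), and polyadenylated RNA of the whole culture was sequenced. The labels call the replicates biological and do not say which genes were joined in M490-A12.

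By the library names, replicate 3 of every group was resubmitted and replicates 1 and 2 form a first set, and each name also carries a letter, called the row here. M490-A12 was in row A of both sets, while the control was in row E of the first set and row C of the resubmitted set. Row and plasmid therefore cannot be told apart in the comparison of the clone with the control. For this reason M490-A12 was also set against the mean of the 24 other clones and against the mean of the 5 other clones that share row A in both sets (M490-F09, M491-C03, M491-C04, M491-C06 and M491-C07). All 3 comparisons share the M490-A12 libraries and are not independent. Totals were 12268478 to 15351634 counts in the 6 libraries and 10773809 to 18981572 in the series.

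Some background helps with the gene groups that follow. Yeast takes up sulfate and reduces it stepwise to sulfide, which is built into homocysteine, methionine and cysteine, and the transcription factor Met4 with its partners Met31, Met32 and Cbf1 turns these genes on when sulfur compounds run short. The factor Mac1 turns on copper uptake when copper is scarce, Aft1 does so for iron, and Zap1 for zinc. Genes for ribosome assembly and for RNA polymerases I and III are among the genes most closely tied to growth rate in this organism.

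The fusion gene itself was read through a row that pools the counts of all construct sequences. This row took 2.47, 2.52 and 1.82% of all counts in M490-A12 replicates 1, 2 and 3, against 0.470, 0.428 and 0.339% in the control replicates. The mean share was 2.27 ± 0.393% in M490-A12 and 0.412 ± 0.0665% in the control (SD, n = 3 each). The ranges did not overlap, and the exact two-sided permutation test gave p = 0.1, the smallest that 3 against 3 allows. Each share had a 95% Wilson interval at most 0.0176 percentage points wide, which covers counting error only. M490-A12 ranked 2 of the 26 groups by this share, behind M490-F09 with 2.47 ± 0.360%. The control ranked 22, above clones such as M491-F10 with a mean of 0.281%. The pooled row also holds a sequence of 66 bases named PP2061, which is the library name of control replicate 3. Whether the control counts come from that sequence was not tested. The construct annotated as M490-A12 is 453 bases long, the shortest of the 23 clone constructs with an annotation, and that of M490-F09 is next with 525 bases.

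Against the control, 620 genes were higher in M490-A12 (11.9% of genes tested) and 545 were lower (10.5%) by edgeR's quasi-likelihood test with Benjamini-Hochberg adjustment over all genes, the test behind every adjusted p given here. Most of these differences were small. Only 16 of the 1165 genes changed by at least 2-fold, 4 of them higher and 12 lower in M490-A12. The 1165 genes are 22.4% of those tested. All 3 M490-A12 values lay above all 3 control values for 11.5% of genes and below them for 8.31%. Against the 24 other clones 515 genes (9.88%) were higher and 535 (10.3%) lower, 20.1% in all. Against the 5 row A clones 191 (3.66%) were higher and 164 (3.15%) lower, 6.81% in all. The median log2 difference over all genes was 0.00, 0.01 and 0.00 in these comparisons, so values below are read against a centre near 0. Counts of rows in the gene groups below are read against the shares of all genes given here. The counts against the clones rest on few libraries. Without M490-A12 replicate 1, 2 or 3 they were 578, 636 or 611 genes against the 24 other clones and 72, 76 or 278 against the row A clones.

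Genes of sulfate assimilation and methionine synthesis were higher in M490-A12. Of 25 rows in this group, 13 passed the test as higher than the control and none as lower, with a median log2 difference of 0.47. Against the 24 other clones 16 were higher, and against the row A clones 17 were higher, with none lower and medians of 0.46 and 0.55. Without M490-A12 replicate 1 or 2 the count against the row A clones was 11, and without a term for the set the count against the control was 6. M490-A12 had the highest mean of the 26 groups for 13 of the 25 rows, as against 4.82% of all genes. The mean level of the group was 7.24 and 7.16 log2 CPM (counts scaled to a common library size by the TMM method) in M490-A12 replicates 1 and 2, against 6.63 and 6.64 in control replicates 1 and 2. In the resubmitted set it was 6.997 in M490-A12 and 6.82 in the control. The row A clones spanned 6.42 to 6.88 in the first set and 6.40 to 6.75 among resubmitted libraries, below M490-A12 in both. Libraries of other clones reached 7.26 among replicates 1 and 2 and 7.18 among replicates 3, so that M490-A12 ranked 2 and 3 of 52 libraries and 2 of 26.

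**Figure D1:**
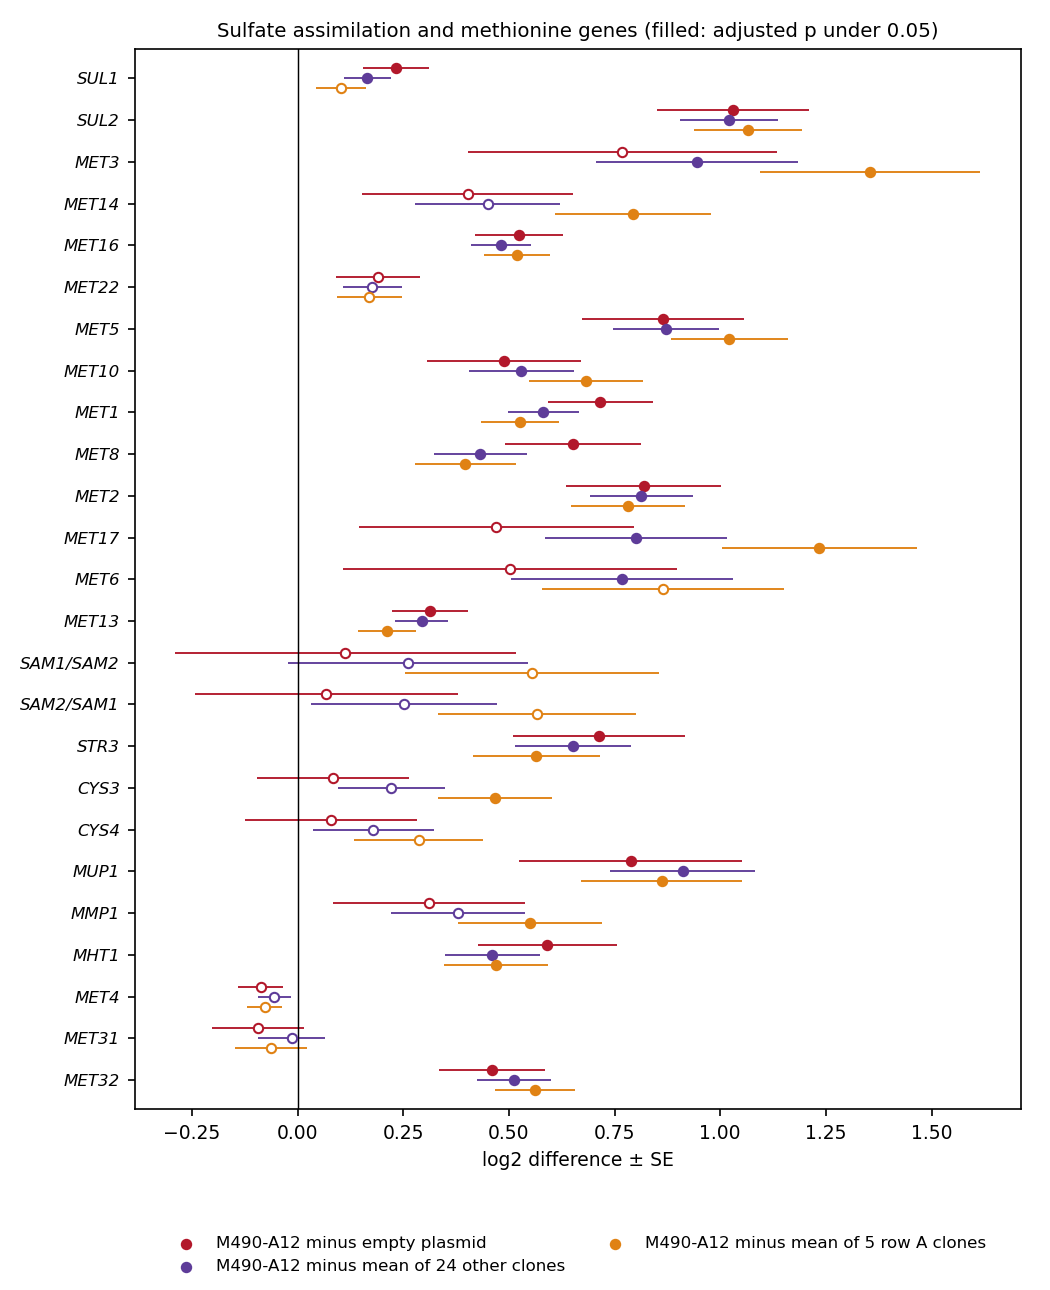
Log2 difference (x axis, ± SE) of M490-A12 minus the empty plasmid (red), the mean of the 24 other clones (purple) and the mean of the 5 row A clones (orange) for each sulfate assimilation and methionine row (y axis), with filled points past an adjusted p of 0.05. SUL2 and MET5 lie near 1 in each comparison, while MET3 and MET17 lie further right against the row A clones than against the control.

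At the point of entry, SUL2 encodes a high-affinity sulfate permease. It had 218, 230 and 134 CPM in M490-A12 and 97.3, 114 and 71.6 CPM in the control. All 3 clone values lay above all 3 control values. In a culture, fewer cells with a message and less of it per cell cannot be told apart. The log2 difference was 1.03 (SE 0.18, adjusted p = 3.82e-05). It was 1.02 against the other clones and 1.07 against the row A clones, whose means ran from 80.5 to 121 CPM. The second permease, SUL1, moved little, with 119, 105 and 122 CPM in M490-A12 and 99.5, 99.2 and 94.6 CPM in the control (log2 difference 0.23, SE 0.0775, adjusted p = 0.0236), and did not pass against the row A clones (0.10, adjusted p = 0.31). The small rise of SUL1 over the control no longer passed without M490-A12 replicate 1 (0.18, adjusted p = 0.146) or without control replicate 3 (0.16, adjusted p = 0.196).

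Of the enzymes that activate and reduce sulfate, MET16 (phosphoadenylyl-sulfate reductase) had 78.1, 67.8 and 65.9 CPM in M490-A12, against 50.6, 50.7 and 46.0 CPM in the control. Its log2 difference was 0.52 in the comparison with the control (SE 0.104, adjusted p = 0.00021), 0.48 with the other clones and 0.52 with the row A clones. MET5, the beta subunit of sulfite reductase, had 360, 308 and 284 CPM in M490-A12, against 173, 172 and 175 CPM in the control. These values did not overlap, and its difference of 0.86 (SE 0.193, adjusted p = 0.000824) was joined by 1.02 against the row A clones. The alpha subunit gene MET10 rose by 0.49 against the control (SE 0.182, adjusted p = 0.045), a call that was lost in 7 of 14 alternative analyses, with 0.41 and adjusted p = 0.168 without M490-A12 replicate 1. MET1 and MET8, which make the siroheme cofactor of sulfite reductase, rose by 0.72 (SE 0.124, adjusted p = 3.35e-05) and 0.65 (SE 0.161, adjusted p = 0.00242).

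MET3 (ATP sulfurylase), MET14 (adenylyl-sulfate kinase) and MET17 (O-acetylhomoserine sulfhydrylase, which adds sulfide to the carbon chain) behaved differently between the sets. MET3 had 206, 185 and 128 CPM in M490-A12 and 87.2, 83.1 and 134 CPM in the control, so that control replicate 3 lay above M490-A12 replicate 3. The log2 difference in MET3 was 1.20 within the first set and -0.07 within the resubmitted one, and it did not pass against the control (0.77, SE 0.366, adjusted p = 0.127). Against the row A clones MET3 was higher by 1.35 (SE 0.26, adjusted p = 0.000686), with 1.43 within the first set and 1.20 within the other. MET17 had 1152, 1078 and 681 CPM in M490-A12 and 649, 624 and 806 CPM in the control. It did not pass against the control (0.47, adjusted p = 0.32) and was higher than in the row A clones by 1.23 (SE 0.23, adjusted p = 0.00041). MET14 likewise passed only in the comparison with the row A clones, by 0.79 (adjusted p = 0.00508), with 0.40 against the control (adjusted p = 0.257). That call of MET14 was lost without M490-A12 replicate 1 (adjusted p = 0.113) or 2 (adjusted p = 0.0532).

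MET2, homoserine O-acetyltransferase, supplies the carbon acceptor of MET17. It had 182, 184 and 111 CPM in M490-A12, against 105, 104 and 61.8 CPM in the control, and rose by 0.82 (SE 0.184, adjusted p = 0.00089). The methionine permease MUP1 had 329, 326 and 262 CPM in M490-A12, against 184, 192 and 155 CPM in the control. The groups did not overlap, and the difference of 0.79 (SE 0.263, adjusted p = 0.0242) stood beside 0.91 against the other clones and 0.86 against the row A clones. The call of MUP1 against the control was lost in 7 of 14 alternatives, among them each in which 1 of the 6 libraries was left out (0.75 to 0.80, adjusted p = 0.0506 to 0.0728). A low-affinity relative, MUP3, rose by 0.85 (SE 0.215, adjusted p = 0.00302), with 68.5, 72.1 and 56.1 CPM in M490-A12 and 36.9, 42.3 and 30.1 CPM in the control.

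STR3 (cystathionine beta-lyase) and MHT1 (homocysteine methyltransferase that uses S-methylmethionine) were also higher than in the control, by 0.71 and 0.59 (SE 0.203 and 0.164, adjusted p = 0.00812 and 0.00685). Without M490-A12 replicate 3 the difference of STR3 was 0.48 (adjusted p = 0.132), and without control replicate 1 it was 0.63 (adjusted p = 0.0506). Among the regulators, MET32 rose by 0.46 against the control (SE 0.125, adjusted p = 0.00591) and by 0.56 against the row A clones. MET4 and MET31 did not pass in any of the 3 comparisons, nor did MET22, CYS4 and the joined SAM1 and SAM2 rows. CYS3, which makes cysteine from cystathionine, passed only against the row A clones (0.47, adjusted p = 0.025), with 0.08 against the control, and not without M490-A12 replicate 1 (adjusted p = 0.215) or 2 (adjusted p = 0.147).

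Copper uptake genes were higher in M490-A12, with little spread between replicates. CTR1, the high-affinity copper transporter of the plasma membrane, had 127, 133 and 130 CPM in M490-A12 and 62.9, 67.9 and 68.8 CPM in the control. Its log2 difference was 0.97 against the control (SE 0.0741, adjusted p = 6.46e-15), 0.83 against the other clones and 0.72 against the row A clones. Only 1 of the 75 other libraries reached the lowest M490-A12 value. FRE1, the ferric and cupric reductase that serves CTR1, had 107, 101 and 129 CPM in M490-A12, against 68.1, 66.3 and 80.1 CPM in the control, a difference of 0.65 (SE 0.0601, adjusted p = 6.09e-12). FRE7, a further reductase gene of the copper response, had 24.6, 21.7 and 30.6 CPM in M490-A12 and 16.7, 16.1 and 18.7 CPM in the control and rose by 0.58 (SE 0.0999, adjusted p = 3.1e-05). Against the row A clones FRE7 was higher by 0.26 (adjusted p = 0.0247), a call lost without M490-A12 replicate 1 (0.29, adjusted p = 0.0928) or 3 (0.13, adjusted p = 0.439).

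CTR1, FRE1 and FRE7 are known targets of Mac1, whose own row did not pass in any comparison. In all, 3 of 10 copper rows were higher and 1 lower than in the control, with a median log2 difference of 0.00. The shares over all genes tested were 11.9% higher and 10.5% lower. The second transporter, CTR3, had the highest mean of the 26 groups at 12.4 CPM and passed against the other clones (0.27, adjusted p = 0.0126) but not against the control (0.24, adjusted p = 0.125). The vacuolar transporter CTR2 fell by 0.29 against the control (SE 0.07, adjusted p = 0.00218) and did not pass in the other comparisons. CUP2, the activator of copper detoxification, was lower than in the other clones by 0.20 and than in the row A clones by 0.21 (adjusted p = 0.00715 and 0.0249). The calls of CTR3 and CUP2 against the 24 other clones were lost without M490-A12 replicate 2 (adjusted p = 0.178 and 0.0629), that of CTR3 also without replicate 3 (adjusted p = 0.0762). The call of CUP2 against the row A clones was lost without any 1 of the M490-A12 libraries (adjusted p = 0.0622 to 0.146). CCC2, CCS1 and SOD1, which handle copper inside the cell, did not pass. CUP1-1, CUP1-2, CRS5, ATX1 and COX17 were not analysed here.

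**Figure D2:**
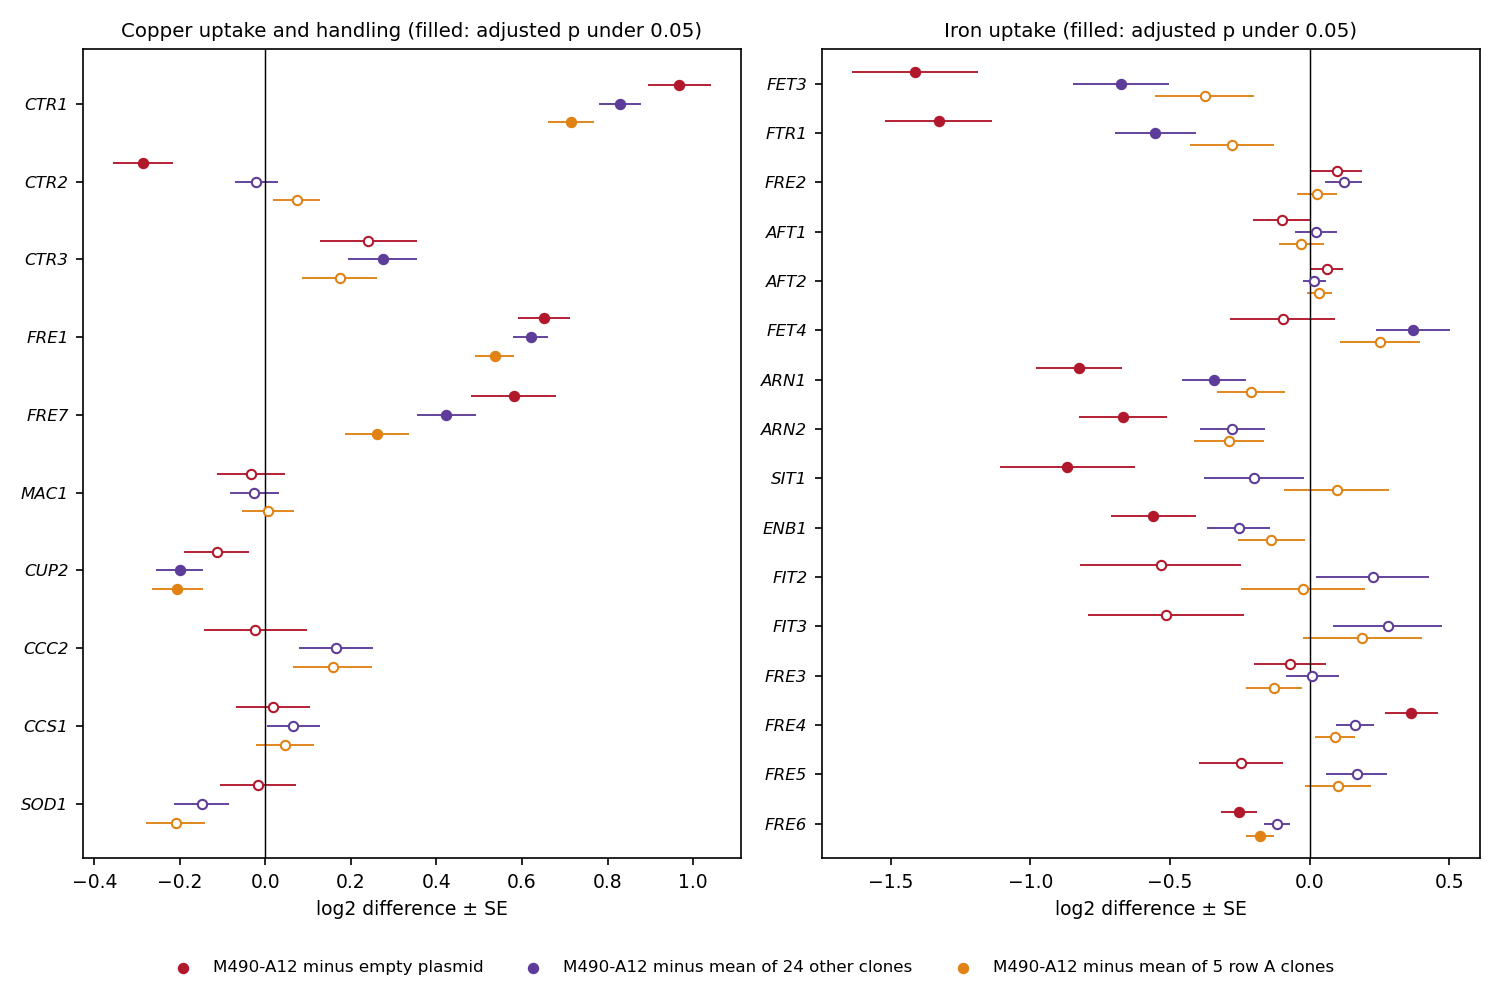
Log2 differences (x axis, ± SE) of M490-A12 minus the empty plasmid (red), the 24 other clones (purple) and the 5 row A clones (orange) for copper genes (left) and iron uptake genes (right), one row per gene, filled where adjusted p was under 0.05. CTR1 and FRE1 stay right of 0.5 in each comparison, whereas FET3 and FTR1 lie below -1.3 against the control and closer to 0 against the clones.

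Of 8 rows for reductive iron uptake and its regulators, FET3 and FTR1 were lower in M490-A12 than in the control and FRE1, described above, was higher. The median log2 difference from the control was -0.06, with -0.20 within the first set and 0.25 within the resubmitted one. FRE2, FET4, AFT1, AFT2 and CCC2 did not pass against the control. FET3, the multicopper oxidase of high-affinity iron uptake, had 276, 287 and 254 CPM in M490-A12, against 754, 776 and 638 CPM in the control. FTR1, the permease that works with it, had 186, 190 and 198 CPM in M490-A12, against 526, 553 and 356 CPM in the control. Both pairs of groups lay far apart, with differences of -1.41 for FET3 (SE 0.225, adjusted p = 8.14e-06) and -1.33 for FTR1 (SE 0.192, adjusted p = 1.54e-06). Against the row A clones the differences were -0.37 for FET3 and -0.28 for FTR1, and neither passed (adjusted p = 0.193 and 0.266). Against the 24 other clones 2 of the 8 rows were lower and 2 higher, as against 10.3 and 9.88% of all genes. The lowest of these differences was -0.67, and without M490-A12 replicate 3 each count was 1. Means at or above that of M490-A12 were found in 22 of these clones for FET3 and 21 for FTR1.

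Of 10 siderophore and cell wall iron rows, 5 were lower and 1 higher than in the control, and 1 was lower than in the row A clones. Against the 24 other clones 1 was lower, which was lost without any 1 of the M490-A12 libraries. The shares over all genes tested were 10.5% lower and 11.9% higher than in the control. They were 3.15% lower than in the row A clones and 10.3% lower than in the 24 other clones. The direction of this group turned between the sets, with a median of -0.78 against the control within the first set and 0.14 within the resubmitted one, where the mean level was 6.95 log2 CPM in M490-A12 and 6.82 in the control. The siderophore transporter ARN1 had 92.5, 97.8 and 106 CPM in M490-A12, against 187, 196 and 140 CPM in the control, and fell by 0.83 (SE 0.154, adjusted p = 9.24e-05). SIT1, ARN2 and ENB1, which import other siderophores, fell by 0.87, 0.67 and 0.56 (adjusted p = 0.0068, 0.00155 and 0.00537). The wall mannoprotein gene FIT2 had 600, 523 and 568 CPM in M490-A12 and 1113, 1226 and 372 CPM in the control. Within the first set it lay lower and within the resubmitted one higher, and it did not pass (-0.53, adjusted p = 0.184). FRE4, a siderophore reductase, was the 1 higher row, by 0.36 (adjusted p = 0.00398). The vacuolar reductase FRE6 was the 1 row lower than in the row A clones, by -0.18 (adjusted p = 0.0249), a call lost without any 1 of the M490-A12 libraries (adjusted p = 0.0554 to 0.184). TIS11, which degrades messages of iron-using proteins, fell by 0.67 against the control (SE 0.217, adjusted p = 0.0213) with a first-set difference of -1.02 and a resubmitted-set difference of 0.28. The call of TIS11 was lost without M490-A12 replicate 1 or 2 and without control replicate 1 or 2 (adjusted p = 0.0674 to 0.147).

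**Figure D3:**
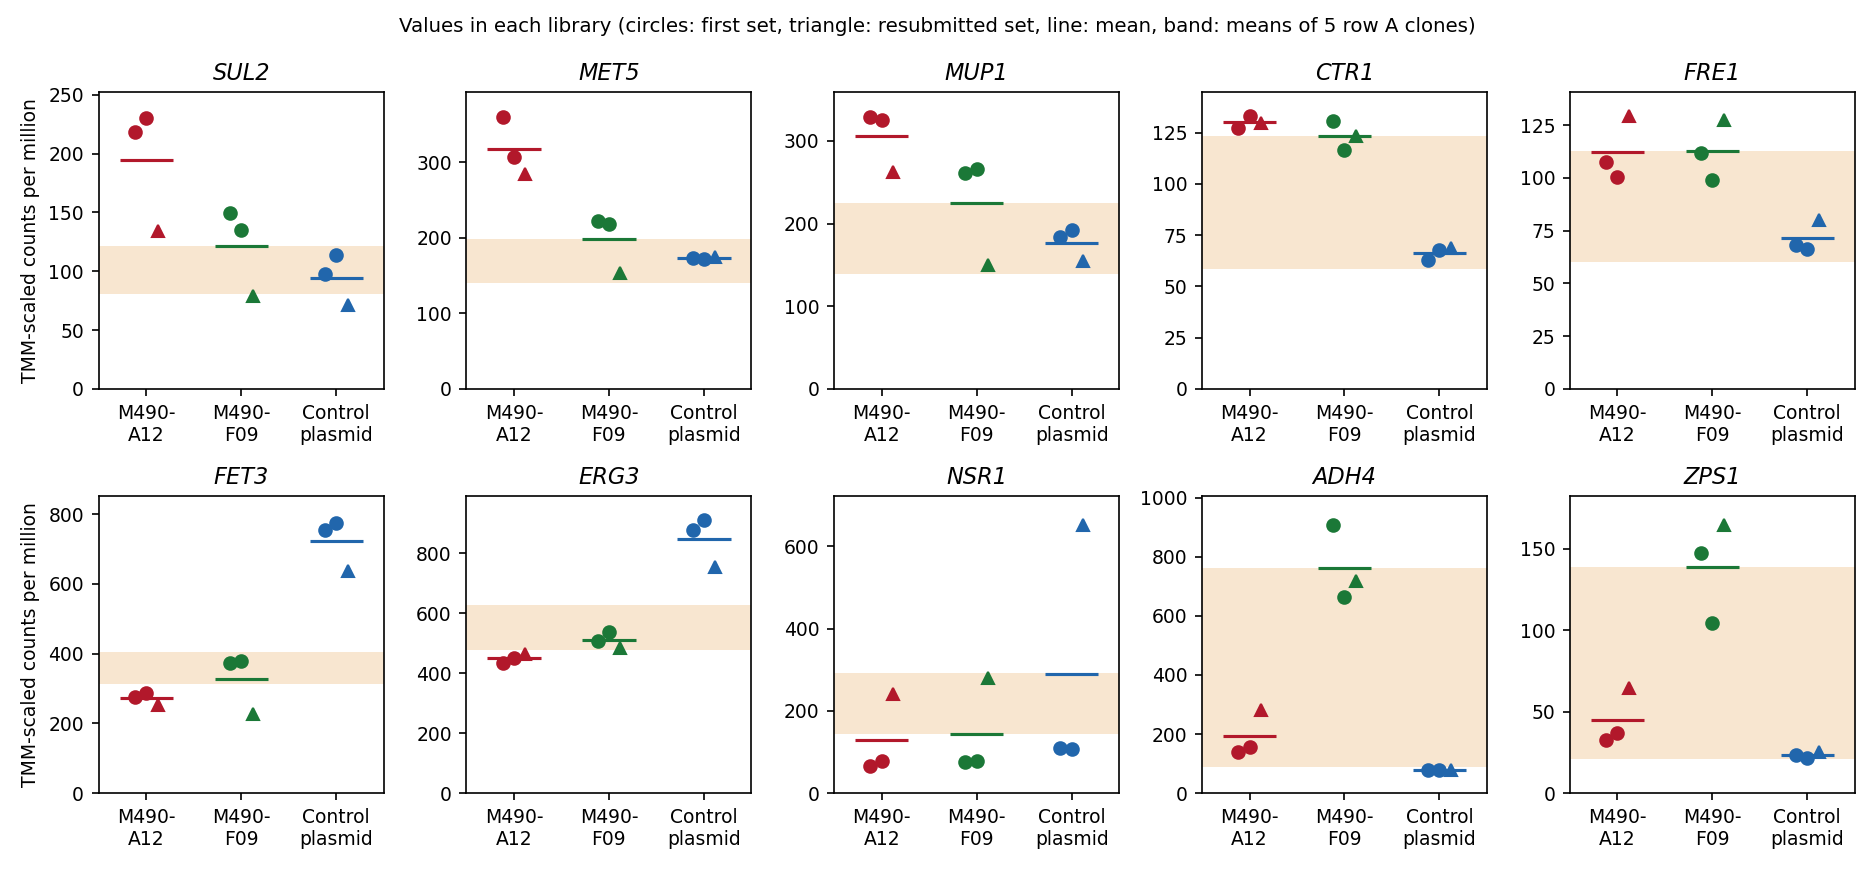
TMM-scaled CPM (y axis, from 0) of 10 genes in each library of M490-A12 (red), M490-F09 (green) and the control plasmid (blue), with circles for the first set, triangles for the resubmitted set, lines for means and bands for the range of means of the 5 row A clones. M490-A12 and M490-F09 share their CTR1 and FRE1 values, M490-A12 stands highest for SUL2 and MET5, and M490-F09 stands highest for ADH4 and ZPS1.

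M490-F09, the other clone whose name opens with M490, was the clone nearest to M490-A12 in copper genes, with 131, 117 and 123 CPM of CTR1 and a mean of 113 CPM of FRE1. A direct comparison of both clones was therefore added after these values were seen. Only 7 of 5212 genes (0.134%) passed, all lower in M490-A12, with 221 genes at an unadjusted p under 0.05. Tested the same way, the number of genes that differed from M490-A12 was 58 for M491-C12, 151 for M491-C09 and 190 for M491-D01, and up to 2791 for M495-F02. The control ranked 20 of the 25 groups in this order, with 1165 genes. By first-set row the median count was 566 genes over the 5 other clones of row A, 362 over 6 clones of row B, 933.5 over 6 of row C and 1311 over 6 of row D. M490-A12 was named A1 and A2 and M490-F09 A3 and A4 in the first set, next to each other also in the resubmitted set, and the part of this placement in the result was not tested.

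Of the 7 genes, 5 belong to the zinc response. ADH4, a zinc-regulated alcohol dehydrogenase, had 141, 155 and 283 CPM in M490-A12 and 906, 662 and 718 CPM in M490-F09, against 78.1, 79.9 and 80.1 CPM in the control. M490-A12 thus lay between the others, below M490-F09 by -2.02 (SE 0.158, adjusted p = 6.91e-15) and above the control by 1.25 (SE 0.159, adjusted p = 1.17e-07). ZPS1, a secreted protein made under zinc shortage, had 32.4, 37.2 and 64.4 CPM in M490-A12 and 148, 105 and 165 CPM in M490-F09, against 23.5, 21.6 and 25.2 CPM in the control. It differed from M490-F09 by -1.67 (SE 0.13, adjusted p = 6.91e-15) and from the control by 0.89 (SE 0.139, adjusted p = 7e-06).

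The zinc permease ZRT1 had 469, 503 and 574 CPM in M490-A12 and 1161, 1021 and 986 CPM in M490-F09, and the control had 536, 523 and 429 CPM. It was lower than in M490-F09 by -1.04 (adjusted p = 0.00968) and did not pass against the control (0.04, adjusted p = 0.913). The call of ZRT1 against M490-F09 was lost without M490-A12 replicate 1, 2 or 3 (adjusted p = 0.14, 0.0609 and 0.0754). The regulator ZAP1 and the vacuolar exporter ZRT3 differed from M490-F09 by -0.69 and -0.44 (adjusted p = 0.0025 and 1.84e-05) and did not pass against the control. The remaining genes were MRS3, a mitochondrial iron carrier, at -0.32 (adjusted p = 3.22e-05) and RTC4 at -0.70 (adjusted p = 1.2e-06), and neither passed against the control. Of all genes tested 11.9% were higher and 10.5% lower than in the control, and 9.88% higher and 10.3% lower than in the 24 other clones. Over all 17 zinc rows, 3 were higher and 1 lower in M490-A12 than in the control, and 6 were higher and 1 lower than in the 24 other clones. Each of these lower rows was lost without M490-A12 replicate 1 or 2.

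For the sulfur genes the clones could not be told apart by this test, but the intervals were wide. SUL2 had 149, 135 and 79.3 CPM in M490-F09, and M490-A12 was above it by 0.68 with a 95% interval of 0.33 to 1.04 that was not adjusted for the number of genes (adjusted p = 0.166). MET5 had 223, 219 and 153 CPM in M490-F09, and M490-A12 was above it by 0.69 with an interval of 0.30 to 1.07 (adjusted p = 0.274). In the first set alone these genes passed between the clones, SUL2 at adjusted p = 2.08e-07 and MET5 at 1.67e-06. CTR1 differed by 0.08 with an interval of -0.07 to 0.22, and FRE1 by 0.00 with an interval of -0.12 to 0.11. The median over the 25 methionine rows was 0.39 between these clones, and over the 10 copper rows 0.01.

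Genes of ribosome assembly were lower in M490-A12. Of 138 ribosome biogenesis rows, 100 were lower than in the control, 121 lower than in the 24 other clones and 42 lower than in the row A clones, and none was higher in any of these. The medians were -0.48, -0.41 and -0.28. The number of lower rows depended on single libraries: against the control it was 58 without M490-A12 replicate 3 and 41 without control replicate 3. Against the 24 other clones it was 79 without M490-A12 replicate 1 and 62 without replicate 3, and against the row A clones 10, 10 and 19 without M490-A12 replicate 1, 2 and 3. Without a term for the set 5, 7 and 2 rows passed. M490-A12 had the lowest mean of the 26 groups for 81 of the 138 rows, as against 6.08% of all genes. The low level was not particular to this clone. Against M490-F09 none of the 138 rows passed, with a median of -0.04. The mean level of the rows was 5.35 and 5.39 log2 CPM in M490-A12 of the first set, against 5.74 and 5.72 in the control. In the resubmitted set, where the level was higher in both groups, it was 5.84 in M490-A12 and 6.54 in the control. The row A clones reached 5.36 to 6.09 in the first set and 5.82 to 6.18 among resubmitted libraries, so that M490-A12 lay at the low end of them and the control of the resubmitted set lay above them.

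**Figure D4:**
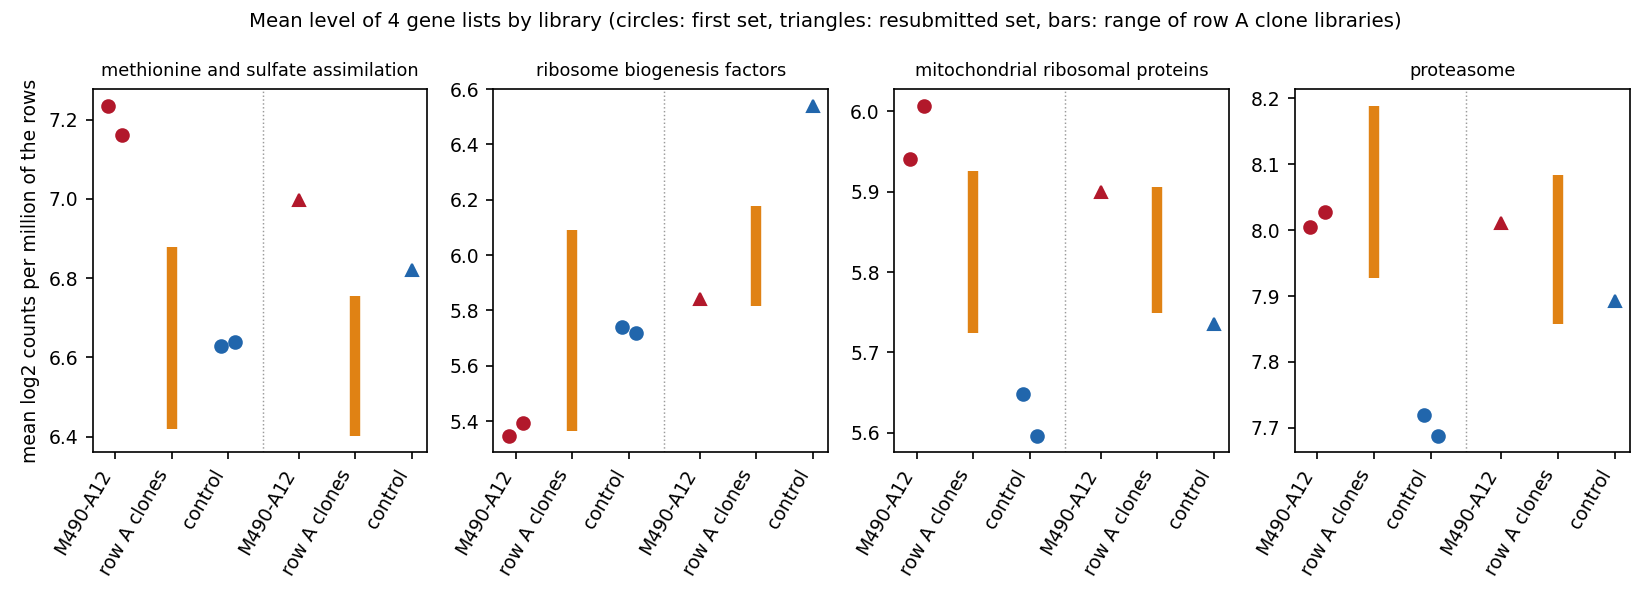
Mean log2 CPM (y axis) of 4 gene groups in each M490-A12 library (red) and each control library (blue), with the first set left of the dotted line (circles) and the resubmitted set right of it (triangles), and orange bars for the range of the row A clone libraries. M490-A12 lies above the bars for methionine genes in both sets and within them for the proteasome.

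NSR1, a nucleolar protein of early ribosomal RNA processing, had 65.5, 78.8 and 242 CPM in M490-A12 and 110, 108 and 652 CPM in the control. Within each set M490-A12 was lower, by -0.60 in the first and -1.43 in the resubmitted set, and the fitted difference was -0.94 (SE 0.292, adjusted p = 0.015). It was -0.79 against the row A clones (SE 0.239, adjusted p = 0.0317). Without control replicate 3 the difference of NSR1 from the control was -0.57 (adjusted p = 0.233), and without M490-A12 replicate 1 it was -0.88 (adjusted p = 0.0622). Its call against the row A clones was lost without any 1 of the M490-A12 libraries (adjusted p = 0.0926 to 0.209). UTP13, a part of the small-subunit processome, had 31.2, 28.6 and 56.7 CPM in M490-A12 and 46.9, 49.5 and 94.5 CPM in the control. It fell by 0.71 (SE 0.126, adjusted p = 4.98e-05), and by 0.51 against the row A clones (adjusted p = 0.00121). The mean of UTP13 in M490-A12 was the lowest of the 26 groups.

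PWP2 and UTP5 of the same complex fell by 0.75 and 0.87 (SE 0.129 and 0.182), and SYO1, a carrier of ribosomal proteins into the nucleus, by 0.72 (SE 0.177), with adjusted p = 3.35e-05, 0.000422 and 0.00229. All 3 were also lower than in the row A clones, by -0.48, -0.52 and -0.52. These row A calls were lost without M490-A12 replicate 1 (adjusted p = 0.0778, 0.152 and 0.189), that of UTP5 also without replicate 2 or 3 (adjusted p = 0.115 and 0.0711) and that of SYO1 without replicate 3 (adjusted p = 0.107). The helicase genes HAS1 and PRP43 lay furthest below the control among these rows, at -1.05 for each (SE 0.317 and 0.217, adjusted p = 0.0131 and 0.000323). Replicate 3 differed most, with 55.5 CPM of HAS1 and 75.1 CPM of PRP43 in M490-A12, against 200 CPM of HAS1 and 220 CPM of PRP43 in the control. Without control replicate 3 or M490-A12 replicate 3 HAS1 did not pass (-0.77 and -0.82, adjusted p = 0.134 and 0.117). Neither passed against the row A clones (-0.44 and -0.43, adjusted p = 0.312 and 0.128).

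Of 27 rows for RNA polymerases I and III, 17 were lower than in the control, 19 lower than in the other clones and 6 lower than in the row A clones, with medians of -0.38, -0.34 and -0.25. These rows hold polymerase subunits and also initiation factors of polymerase I (the RRN genes and UAF30). Against M490-F09 none of the 27 rows passed, with a median of -0.06. The count against the control was 11 without M490-A12 replicate 1 and 8 without control replicate 3. Against the other clones it was 12 without M490-A12 replicate 3, and against the row A clones 1, 1 and 2 without M490-A12 replicate 1, 2 and 3. RPC34 of polymerase III had 29.4, 32.6 and 34.0 CPM in M490-A12, against 43.0, 41.4 and 48.9 CPM in the control. It fell by 0.47 without overlap (SE 0.12, adjusted p = 0.00299), by 0.37 against the row A clones (adjusted p = 0.0122), and its mean was the lowest of the 26 groups. The row A call of RPC34 was lost without M490-A12 replicate 1 or 3 (adjusted p = 0.12 and 0.0593). RPA190, the largest subunit of polymerase I, fell by 0.80 against the control (SE 0.197, adjusted p = 0.0025) and did not pass against the row A clones (-0.34, adjusted p = 0.18). Of all genes tested 10.5, 10.3 and 3.15% were lower than in the control, the other clones and the row A clones. Of 55 rows for the cytosolic ribosomal proteins themselves 2 were lower than in the control, 7 lower than in the other clones and 1 lower than in the row A clones, with a median of -0.17 against the control. Split by set, this median was -0.01 for replicates 1 and 2 and -0.50 for replicate 3, where the mean level was 9.01 log2 CPM in M490-A12 and 9.52 in the control. All 55 differences lay below 0 against the 24 other clones and against the row A clones. The first set alone gave 49 lower rows against the row A clones, while without control replicate 3 none was lower than in the control and without M490-A12 replicate 1 none was lower than in the other clones.

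Proteasome and mitochondrial ribosomal protein genes were higher in M490-A12 than in the control. Of 34 proteasome rows, 27 were higher in M490-A12 than in the control and 13 higher than in the 24 other clones, with medians of 0.25 and 0.09. The 13 became 5 without M490-A12 replicate 1 or 2. None passed against the row A clones, where the median was 0.00. By mean level of these rows, from the highest down, control replicates 1 and 2 ranked 50 and 52 of 52 libraries. Control replicate 3 ranked 18 of 26. The core subunit PRE1 had 277, 279 and 329 CPM in M490-A12 and 207, 210 and 254 CPM in the control (0.40, SE 0.0581, adjusted p = 1.72e-06), and the row A clone means of 261 to 324 CPM enclosed the M490-A12 mean of 295 CPM. Of 66 mitochondrial ribosomal protein rows, 52 were higher than in the control, 37 higher than in the 24 other clones and 9 higher than in the row A clones, with medians of 0.29, 0.16 and 0.11. The 37 became 19 without M490-A12 replicate 2, and the 9 became 2 and 1 without M490-A12 replicate 1 and 2. Of these 66 differences from the row A clones 62 lay above 0. The mean level was 5.94 and 6.01 log2 CPM in M490-A12 of the first set, above the row A clones at 5.72 to 5.93, and 5.90 in the resubmitted one, within their 5.75 to 5.91. MRPS9 of the small mitochondrial subunit had 105, 105 and 108 CPM in M490-A12 and 73.5, 74.5 and 94.4 CPM in the control. It rose by 0.40 against the control (SE 0.0588, adjusted p = 2.35e-06) and by 0.24 against the row A clones (adjusted p = 0.000349).

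Of 25 heat shock chaperone rows 10 were higher than in the control, while 2 were higher and 3 lower than in the 24 other clones and 1 was lower than in the row A clones. Of all genes tested 11.9% were higher than in the control and 3.15% lower than in the row A clones. Against the 24 other clones 9.88% were higher and 10.3% lower. The 10 became 5 without M490-A12 replicate 3 and 3, 6 and 6 without control replicate 1, 2 and 3. The mitochondrial chaperonin HSP60 had 1620, 1693 and 2186 CPM in M490-A12 and 1011, 1225 and 1199 CPM in the control, a difference of 0.67 (SE 0.15, adjusted p = 0.000893), and 0.10 against the row A clones (adjusted p = 0.646). Of 27 ergosterol synthesis rows, 9 were lower than in the control and none passed against the row A clones. Against the 24 other clones 7 were lower and 1 higher. The 7 became 3 without M490-A12 replicate 3. The 1 became 0 without M490-A12 replicate 1 or 3 or control replicate 1. ERG3, the sterol C-5 desaturase, had 435, 451 and 464 CPM in M490-A12, against 880, 911 and 754 CPM in the control. It fell by 0.92 (SE 0.105, adjusted p = 9.67e-09), and against the row A clones the difference was -0.21 (adjusted p = 0.11). The ERG3 mean was at or above that of M490-A12 in 23 of the 24 other clones. PHO3, a thiamine-repressed acid phosphatase, had 61.9, 55.4 and 40.2 CPM in M490-A12, against 237, 241 and 83.3 CPM in the control. At -1.76 (SE 0.293, adjusted p = 1.82e-05) this was the largest fall among all genes tested against the control, and it was -0.36 against the row A clones (adjusted p = 0.375). In 23 of the 24 other clones the PHO3 mean was at or above that of M490-A12. Among the 17 thiamine rows 1 passed as lower than in these clones. The lowest difference of these rows, -0.97, was also the lowest of all genes tested in that comparison.

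**Figure D5:**
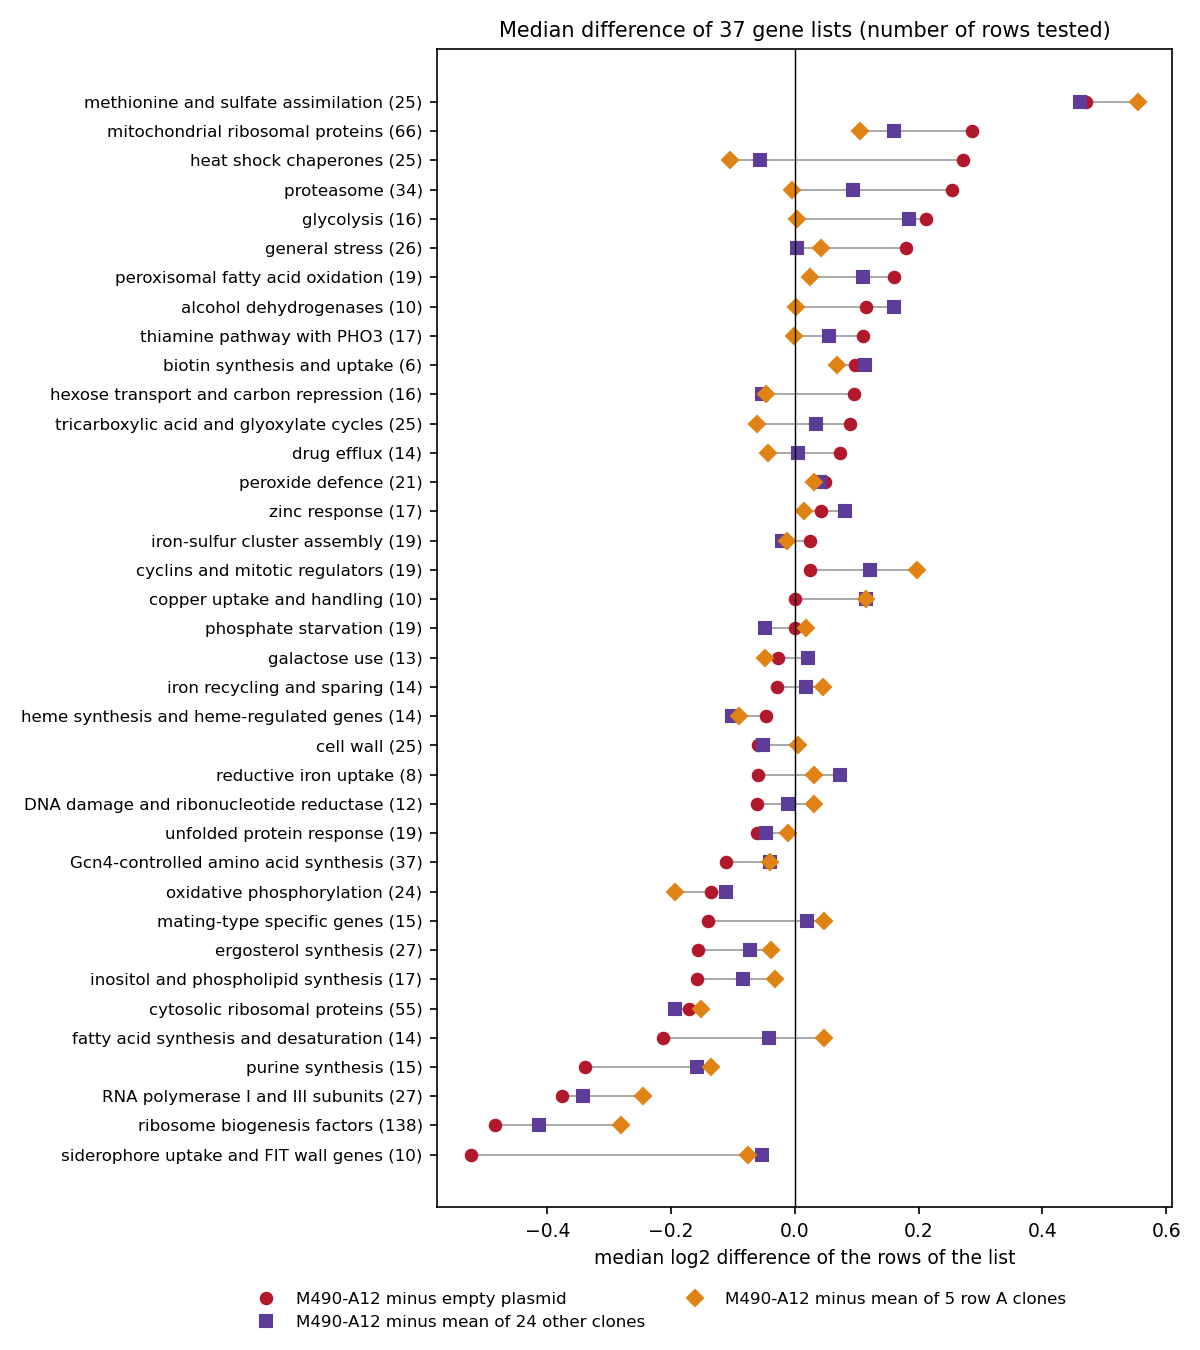
Median log2 difference (x axis) of the rows of 37 gene groups (y axis, with the number of rows tested) in M490-A12 minus the empty plasmid (red circles), minus the 24 other clones (purple squares) and minus the 5 row A clones (orange diamonds). Methionine and sulfate assimilation stays near 0.5 in each comparison, ribosome biogenesis stays below -0.2, and the proteasome and siderophore groups move close to 0 against the row A clones.

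Some genes of central carbon metabolism were higher in M490-A12. Of 25 rows for the tricarboxylic acid and glyoxylate cycles, 8 were higher and 1 lower than in the control, 7 higher and 1 lower than in the 24 other clones and 1 higher than in the row A clones, with medians of 0.09, 0.03 and -0.06. Of all genes tested 11.9, 9.88 and 3.66% were higher in these comparisons, and 10.5 and 10.3% were lower in the first 2. The 7 were 4 without M490-A12 replicate 2, and without a term for the set 3 were higher than in the control. LSC2, a subunit of succinyl-CoA ligase, had 663, 696 and 534 CPM in M490-A12 and 496, 506 and 413 CPM in the control, higher by 0.42 (SE 0.0667, adjusted p = 8.14e-06), with 0.04 against the row A clones (adjusted p = 0.719). CIT3, a mitochondrial enzyme with citrate and methylcitrate synthase activity, had 91.1, 81.4 and 67.0 CPM in M490-A12, against 39.8, 43.0 and 24.7 CPM in the control. It rose by 1.17 (SE 0.159, adjusted p = 4.14e-07), by 0.90 against the other clones and by 0.55 against the row A clones (adjusted p = 0.00236). The highest CIT3 mean among the other clones was 74.7 CPM, in M490-F09. PDH1, the neighbouring step of the methylcitrate cycle, rose by 0.68 against the control (SE 0.223, adjusted p = 0.0215) and did not pass against the row A clones (0.39, adjusted p = 0.142). Without control replicate 3 PDH1 did not pass against the control (0.52, adjusted p = 0.15), nor without M490-A12 replicate 3 (0.66, adjusted p = 0.0606). CIT2, the peroxisomal citrate synthase, rose by 0.67 (SE 0.18, adjusted p = 0.00519), with 1345, 1374 and 831 CPM in M490-A12 and 1020, 884 and 400 CPM in the control, and without control replicate 3 it did not pass (0.49, adjusted p = 0.0814). POX1, which opens peroxisomal fatty acid oxidation, rose by 0.84 (SE 0.143, adjusted p = 2.9e-05), and by 0.36 against the row A clones (adjusted p = 0.0288), which was lost without M490-A12 replicate 1 (adjusted p = 0.275) or 2 (adjusted p = 0.122).

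BIO2, biotin synthase, had 131, 135 and 142 CPM in M490-A12 and 78.5, 66.6 and 78.6 CPM in the control. It rose by 0.87 (SE 0.107, adjusted p = 5.63e-08), and by 0.30 against the row A clones (SE 0.0798, adjusted p = 0.0157). The row A call of BIO2 was lost without any 1 of the M490-A12 libraries (0.28 to 0.32, adjusted p = 0.0618 to 0.0965). The other 5 biotin rows, BIO3 and BIO4 of synthesis, BIO5 and VHT1 of uptake and the ligase BPL1, did not pass in any comparison. Of 16 glycolysis rows, 6 were higher than in the control, 7 higher than in the 24 other clones and 1 higher than in the row A clones, with none lower and medians of 0.21, 0.18 and 0.00. The shares of higher genes over all genes tested were 11.9, 9.88 and 3.66%, so the last count is near the background. All 16 differences from the control lay above 0. The 6 became 2 without M490-A12 replicate 3, 3 without control replicate 1 and 2 without control replicate 3, and the 7 became 1 without M490-A12 replicate 3. PDC1, the main pyruvate decarboxylase, had 12887, 13582 and 18722 CPM in M490-A12 and 8828, 9731 and 14448 CPM in the control, higher by 0.46 (SE 0.0973, adjusted p = 0.000418). Hexokinase HXK1 had 9412, 9264 and 16173 CPM in M490-A12, against 6679, 7561 and 4703 CPM in the control, and rose by 0.86 (SE 0.261, adjusted p = 0.0131). Without replicate 3 of M490-A12 or of the control HXK1 did not pass (0.58 and 0.65, adjusted p = 0.155 and 0.123). Against the row A clones its difference was 0.24 and did not pass (adjusted p = 0.503). PYK2, the second pyruvate kinase, rose by 0.32 and by 0.30 in these comparisons (SE 0.1 and 0.0764, adjusted p = 0.0162 and 0.0114). Its calls were lost without M490-A12 replicate 1 (adjusted p = 0.075 and 0.145), against the control also without control replicate 1 or 3 (adjusted p = 0.0605 and 0.0735) and against the row A clones without M490-A12 replicate 2 (adjusted p = 0.0554).

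Of 24 oxidative phosphorylation rows, 3 were lower than in the control, 4 lower than in the other clones and 10 lower than in the row A clones, with medians of -0.14, -0.11 and -0.19 and none higher. Of all genes tested 10.5, 10.3 and 3.15% were lower in these comparisons, so the first 2 counts are near the background. The counts moved with single libraries: the 3 against the control were 0 without M490-A12 replicate 1 or 3 or control replicate 3, and 5 without control replicate 2. The 4 against the other clones were 0, 2 and 0 without M490-A12 replicate 1, 2 and 3, and the 10 against the row A clones were 4 without M490-A12 replicate 1 and 1 without replicate 3. QCR6, a subunit of the cytochrome bc1 complex, had 472, 505 and 337 CPM in M490-A12 and 538, 551 and 433 CPM in the control, lower by -0.23 (SE 0.0757, adjusted p = 0.0248) and by -0.28 against the row A clones (adjusted p = 0.00291). Against the control QCR6 did not pass without M490-A12 replicate 1 or 3 or control replicate 3 (adjusted p = 0.0824, 0.0987 and 0.159). HEM1, which catalyses the opening step of heme synthesis, had 168, 177 and 306 CPM in M490-A12 and 231, 238 and 432 CPM in the control. It was lower in each set and fell by 0.46 (SE 0.0791, adjusted p = 3.1e-05), with -0.34 against the row A clones (adjusted p = 0.000349), and its mean was the lowest of the 26 groups.

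The growth medium and the strain were checked through their marker genes. GAL1, galactokinase, was highly expressed in both groups, with 19886, 19867 and 26126 CPM in M490-A12 and 18051, 20985 and 21418 CPM in the control, and did not pass (0.11, adjusted p = 0.448). Of 13 galactose rows, the inducer gene GAL3 alone passed against the control, lower by -0.24 (SE 0.0577, adjusted p = 0.00224). The alpha pheromone gene MF(ALPHA)1 had 352, 371 and 231 CPM in M490-A12 and 865, 788 and 304 CPM in the control. It fell by 0.98 (SE 0.205, adjusted p = 0.000409), and did not pass against the row A clones (-0.16, adjusted p = 0.588). The a-factor receptor gene STE3, which alpha cells express, had 187, 191 and 164 CPM in M490-A12 and 274, 256 and 211 CPM in the control (-0.45, SE 0.106, adjusted p = 0.00156). Of the genes of a cells, STE2 and BAR1 were low in both groups. STE2 had means of 21.8 CPM in M490-A12 and 19.5 CPM in the control, and BAR1 had 12.6 CPM in M490-A12 and 10.9 CPM in the control. STE6, a further gene of a cells, was not as low. Its means ran from 49.4 to 66.9 CPM over the 24 other clones, with 1 clone at or above M490-A12. The alpha pheromone gene MF(ALPHA)2 ran from 17.1 to 45.2 CPM over these clones.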

How the data were processed

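The authors deposited whole-number counts per gene for each of the 78 libraries, with no normalization. Per the series' design text, fastp 0.23.1 trimmed the reads and removed duplicates by their molecular identifiers, STAR 2.5.2b aligned them, and featureCounts (Subread 1.5.2) counted the uniquely assigned ones. Build R64 is named in the submitters' processing notes, but the rows of the deposited files lie on contigs of another assembly, so no coordinates are given and promoter sequences and motifs were not analysed here. RefSeq R64 gave gene names: 5058 of 5229 rows matched 1 locus tag, 129 carry several joined tags, whose genes share a row, and 42 did not match. Whether counting used the strand is not given in the sources used here. Rows for the constructs and for undefined features (medians of 0.886% and 2.36% of a library) were left out of library sizes and tests. Reads of a fused gene part may match both construct and genome, so the level of a fused gene is uncertain.

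All 78 libraries entered 1 fit with edgeR 4.0.16 in R 4.3.3 (TMM scaling, filterByExpr by group, quasi-likelihood test), with terms for the group and the library set and 51 residual degrees of freedom. Adjusted p-values are Benjamini-Hochberg values over all genes of a comparison, with a threshold of 0.05. The SE is the log2 difference over the root of F. CPM are scaled by TMM, and log2 CPM have a prior count of 2. Differences by set are of log2 CPM. DESeq2 1.42.0 was an alternative. Python 3.11.15 made the summaries. The model was tested on simulated data.

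The clone, the gene groups and the comparisons were chosen with earlier results of these data known, and the comparison with M490-F09 was added after its values were seen. Genes were named by a rule: past the threshold, at least 10 CPM and no overlap of 3 against 3 values, up to 12 on each side against the control; past the threshold with the highest or lowest mean of the 26 groups, up to 8 on each side against the other clones; up to 6 of each group past the threshold; and any member of the small metal, vitamin, sterol and galactose pathways. RTC4 was chosen after its values were seen.

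The same-numbered libraries of M490-A12 and the control deviated together from their group means (correlations of 0.658, 0.422 and 0.685 over genes for replicates 1, 2 and 3). These correlations were over 0.1 in each pair, the level taken as pairing. A difference between the sets that both groups share can also give them, so they do not show that single replicates were paired. The fit held a term for the set and none for the replicate pair. Replicate 3 is the resubmitted set, which the library names give, and the differences of replicate 1 minus replicate 2 correlated by 0.0267. Counts of replicates 1 and 2 differed by more than sampling noise in both groups (chi-square per gene 2.82 in M490-A12 and 7.83 in the control).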

Additional observations from a re-analysis of the deposited data

How the results depend on the processing

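The cause of the shifts below was not tested, beyond the smaller number of libraries where some were left out. Without a term for the library set, 261 genes differed from the control, 186 from the 24 other clones and 32 from the row A clones. The first set alone gave 1778 genes against the other clones, 1703 against the row A clones and 60 against M490-F09. Treating resubmitted libraries of row A and of the other rows as separate batches gave 714 genes against the row A clones. Only the 6 libraries of M490-A12 and the control were left out, 1 at a time, and no library of another clone was. This gave 801 to 1016 genes against the control and 578 to 1075 against the other clones. It gave 72 to 365 against the row A clones and 6 to 8 against M490-F09. The control libraries are not part of these comparisons between clones. With the replicate number as a block in place of the set, 1155, 1041 and 344 genes passed in the 3 comparisons. No named gene gained or lost its call, and the gene group counts that were checked stayed within 1.5-fold. The share of higher genes among those that differed from the control was 53.2%, but 45.5% with RLE size factors, 45.6% with DESeq2, 38.9% with the 6 libraries alone and 40.9% without control replicate 1. Among gene groups, the 100 lower ribosome biogenesis rows against the control became 5 without the set term, and the 13 higher methionine rows became 6. CTR1, FRE1, SUL2, MET5 and MET16 kept their calls in the 3 comparisons under all alternatives, whereas FRE7, BIO2 and NSR1 each lost theirs against the row A clones in 4 of 13.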

Other observations

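Nucleotide and lipid genes held further differences from the control that were smaller against the row A clones. URA2, which opens pyrimidine synthesis, averaged 531 ± 39.1 CPM in M490-A12 and 1023 ± 348 CPM in the control (SD, n = 3 each). It fell by 0.90 (SE 0.185, adjusted p = 0.000334 by edgeR's quasi-likelihood test). Its mean was the lowest of the 26 groups, and the difference from the row A clones did not pass (-0.25, adjusted p = 0.312). Of 15 purine rows 3 were lower than in the control, as against 10.5% of all genes, and none passed against the row A clones. Of 17 inositol and phospholipid rows 8 were lower and 1 was higher than in the control. Among these, the inositol transporter ITR1 fell by 0.62 (adjusted p = 1.85e-05) and the choline transporter HNM1 by 0.52 (adjusted p = 3.82e-05), and neither passed against the row A clones. TIR2, a cell wall mannoprotein, had 21.1, 21.0 and 25.1 CPM in M490-A12, against 54.4, 56.5 and 35.9 CPM in the control (-1.15, SE 0.171, adjusted p = 2.73e-06), and did not pass against the row A clones (-0.35, adjusted p = 0.126). Means at or above that of M490-A12 were found in 23 of the 24 other clones for TIR2 and in all 24 for ITR1 and HNM1. Against these clones 4 of the 17 inositol and phospholipid rows were lower, as against 10.3% of all genes.

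The dicarboxylic amino acid permease DIP5 had its highest mean of the 26 groups in M490-A12, with 313, 301 and 192 CPM in the clone and 224, 214 and 71.1 CPM in the control (0.73, SE 0.252, adjusted p = 0.029). Without control replicate 3 the difference of DIP5 was 0.48 (adjusted p = 0.243), and it did not pass without any 1 of the M490-A12 libraries (adjusted p = 0.054 to 0.07). Amino acid synthesis outside the sulfur branch showed few changes. Of 37 rows controlled by Gcn4, the general activator of amino acid synthesis, 2 were higher and 2 lower than in the control, with a median of -0.11. Of all genes tested 11.9% were higher and 10.5% lower than in the control. LEU4 and LEU1 of leucine synthesis rose by 0.42 each (adjusted p = 0.0129 and 0.0176), calls lost without control replicate 1 among others (adjusted p = 0.0667 and 0.101), while LEU9 of the same pathway fell by 0.52 (adjusted p = 0.000135). None of the 37 rows passed against the row A clones. Of 19 rows for cyclins and mitotic regulators none passed against the control, with a median of 0.03.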
